A study of Homo sapiens with 32 samples.

Results

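NEDD8, CHMP2A, HCST, SLIRP, PEBP1, DYNLL1, TIMP1, MYL6, CISD1 and GOT2 are 10 genes that were picked because the ratio of newly made to total RNA ranged widely between human B-lymphoblastoid cell lines while newly made RNA changed less. Each gene was matched to the transcript cluster, the probe set an exon array assigns to a gene, that carried its symbol alone in the platform table. Where a gene had several clusters, the one with the highest mean was used. All 10 genes were found among 21788 clusters, and all 10 lay above background, as did 14167 clusters (65.0%) in all. NEDD8 had a second cluster with a mean log2 value of 5.85 in total RNA, below the background of 6.40, and it was not used. The rule sets no numeric limit: between GM07029, GM10835 and GM12813 the ratio ranges of the members held ranks 10 (NEDD8) to 82 (TIMP1) among the 14167 clusters. The levels and between-line differences of the members are therefore a description and carry no test.

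The series covered 7 HapMap lines of B cells immortalized in culture, obtained from a cell repository, each line derived from 1 person. Every culture was given 200 µM of the nucleoside 4-thiouridine (4sU) for 2 h before harvest, so no culture without 4sU is among those compared. Total RNA and the 4sU-labelled (nascent) RNA purified from it went onto separate arrays, 32 in all, from 13 cultures. Replication differed by line: 3 separate cultures stood behind each of GM07029, GM10835 and GM12813, every GM12813 RNA was hybridized again as a technical duplicate, and GM07019, GM12812, GM12814 and GM12815 had a lone culture. The series addressed how mRNA stability differs between genes and between people. Errors given with ± are SD over the 3 cultures of a line unless stated otherwise, a line grown once has no replicate error, and the number of arrays limits all precision.

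Metabolic labelling marks RNA made during the pulse, so the labelled fraction follows transcription while total RNA also holds older transcripts that have not yet been degraded. A transcript with a high total level for its nascent level has a low nascent/total ratio, which in this kind of assay is read as slow turnover; the purification and the number of uridines in a transcript also enter the ratio. The members come from unrelated processes. NEDD8 is a ubiquitin-like protein attached to cullins, CHMP2A is a subunit of the membrane-cutting ESCRT-III complex, HCST (DAP10) is a signalling adaptor known from NK and T cells, and PEBP1 binds and inhibits RAF kinase. SLIRP, CISD1 and GOT2 work in or on mitochondria, DYNLL1 and MYL6 are light chains of dynein and of myosin, and TIMP1 is a secreted inhibitor of matrix metalloproteinases.

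The median log2 value of an array was 6.74 to 6.95 for total RNA and 7.58 to 7.92 for nascent RNA. The 3 GM10835 arrays of total RNA had mean correlations with arrays of other lines of 0.917, 0.916 and 0.920, the lowest of the 16 total RNA arrays, of which the highest was 0.951. The first array of GM12813 replicate 3 was next, at 0.921, and had the lowest correlation with its own line, 0.957, where the next lowest array had 0.968. GM10835 arrays reached 0.991 with their own line. In nascent RNA the GM12815 array stood lowest at 0.919, against 0.932 for the next. All 9 B cell markers on the array were above background, including CD79A and PAX5, against 1 of 11 T and NK cell markers (NKG7), 1 of 7 monocyte and granulocyte markers (ELANE) and 5 of 8 fibroblast and epithelial markers (COL1A1, COL1A2, PDGFRB, KRT8 and KRT18). The mean log2 level of the B cell markers in total RNA ran from 9.83 to 10.4 over the lines, that of the T and NK cell markers from 5.18 to 5.38, that of the monocyte and granulocyte markers from 5.15 to 5.42, and that of the fibroblast and epithelial markers from 6.02 to 6.27.

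In total RNA the members were most abundant in GM10835. The line mean was highest there for 8 of 10 members, and DYNLL1 and CISD1 were highest in GM07029. GM07029 was highest or next to highest for 9 of 10. For the same 8 members every GM10835 culture lay above every culture of all other lines; over all tested clusters 18.5% had such a pattern, and since the choice of members used these values nothing is read from the excess. In bulk RNA, more cells carrying a transcript and more transcript per cell cannot be told apart.

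NEDD8 gave the widest spread. Its total RNA was 11.66, 11.78 and 11.65 in the GM10835 cultures, 8.97, 9.44 and 9.83 in GM07029 and 7.88, 8.09 and 7.68 in GM12813, and 8.65, 8.09, 8.72 and 8.05 in GM07019, GM12812, GM12814 and GM12815 (log2 intensity). No culture of another line came near the GM10835 values, and the 3 replicated lines did not overlap. The GM10835 mean exceeded the mean of the other 6 lines by 3.23 on the log2 scale, a 9.35-fold difference in array intensity.

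CHMP2A, which helps constrict and cut membrane necks, had the same order of the replicated lines. Its total RNA was 11.39, 11.51 and 11.41 in GM10835, 9.39, 9.27 and 9.96 in GM07029 and 8.88, 8.56 and 8.54 in GM12813, and between 8.32 and 8.70 in the lines grown once. The 6 lines other than GM10835 thus held levels no higher than 9.96 in any culture. The GM10835 mean was 6.57-fold above the mean of the other 6.

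HCST total RNA was 9.74, 9.90 and 9.75 in the GM10835 cultures. It was 7.34, 7.58 and 7.64 in GM07029, 7.11, 7.10 and 6.78 in GM12813, and 7.52, 7.52, 7.41 and 7.60 in GM07019, GM12812, GM12814 and GM12815. GM10835 stood alone, 5.16-fold above the mean of the other 6, whose line means lay close together. HCST is a gene of T and NK cells, and the mean of the 11 T and NK cell markers was also highest in GM10835, at 5.38, but 10 of those 11 markers were below background. NKG7, the marker above background, was at 8.16 in GM10835 and between 7.25 and 7.78 in the other lines.

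PEBP1, the RAF kinase inhibitor, was at 10.56, 10.68 and 10.89 in GM10835, 8.93, 9.01 and 9.38 in GM07029 and 8.49, 8.49 and 7.86 in GM12813, with 8.07 to 8.27 in the lines grown once. The 3 replicated lines did not overlap, and the GM10835 mean was 5.14-fold above that of the other 6 lines. TIMP1 showed a like pattern, at 11.66, 11.74 and 11.63 in GM10835 and between 9.66 and 10.23 in GM07029. GM12813 held 9.22, 9.14 and 8.82 of TIMP1, and GM07019, at 9.85, equalled GM07029 within its spread of 9.85 ± 0.33. TIMP1 was lowest in GM12815, at 8.68, and the GM10835 mean was 5.13-fold above the mean of the other 6.

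Among the mitochondrial members, SLIRP, which binds mitochondrial mRNAs with LRPPRC, and GOT2, the mitochondrial aspartate aminotransferase, were highest in GM10835. SLIRP was at 11.16, 11.04 and 11.21 there, 9.40, 9.76 and 10.18 in GM07029, 9.48, 8.63 and 8.10 in GM12813 and 8.67 to 9.02 in the lines grown once. GM07029 and GM12813 overlapped for SLIRP. GOT2 was at 11.34, 11.08 and 11.13 in GM10835, 9.94, 10.10 and 10.44 in GM07029, 9.39, 9.26 and 8.68 in GM12813, and 9.47, 8.54, 9.08 and 8.63 in GM07019, GM12812, GM12814 and GM12815. CISD1, an iron-sulphur protein of the outer mitochondrial membrane, departed from this order. Its total RNA was 9.19, 9.65 and 10.07 in GM07029 and 9.76, 9.41 and 9.54 in GM10835, which overlapped, and 8.06, 7.82 and 7.29 in GM12813. The lowest CISD1 value, 6.67, was that of GM12815.

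The light chains of the motors also set GM10835 and GM07029 apart together. DYNLL1 total RNA was 11.09, 11.77 and 11.74 in GM07029 and 11.36, 11.19 and 11.50 in GM10835, with overlap, and 10.53, 10.66 and 9.26 in GM12813. MYL6 was at 11.67, 11.59 and 11.56 in GM10835, 10.52, 11.29 and 11.12 in GM07029 and 9.70, 10.12 and 9.01 in GM12813. In the lines grown once MYL6 ran from 8.07 in GM12815 to 10.25 in GM07019, and DYNLL1 from 9.24 to 10.55 in the same lines. For both genes GM07019 lay within or above the range of the GM12813 cultures.

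**Figure D1:**
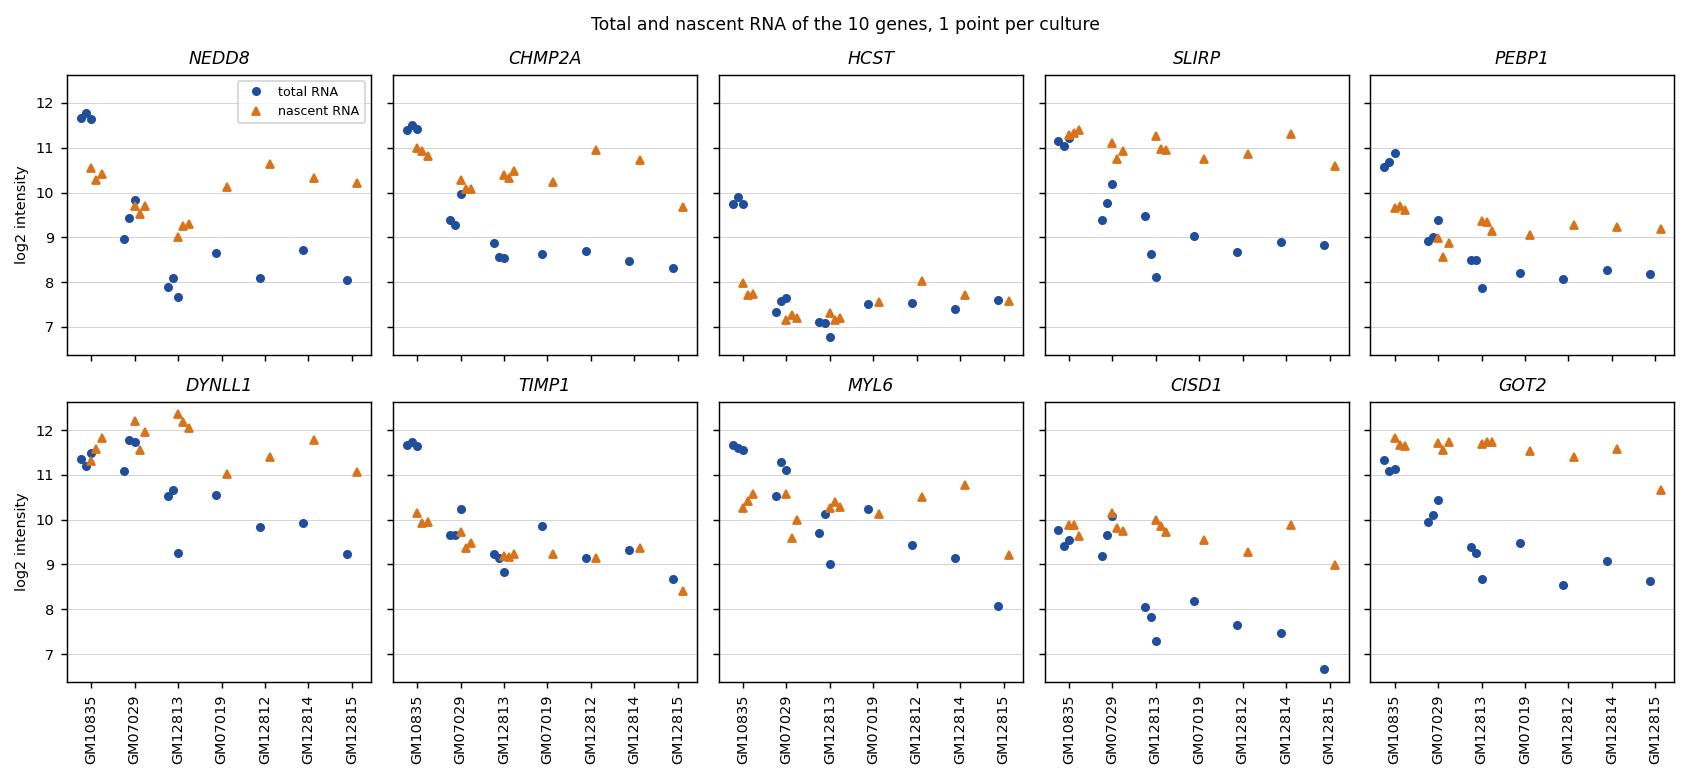
Total and nascent RNA of the 10 members in each of the 13 cultures, as log2 array intensity, with the lines along the horizontal axis. Circles mark total RNA and triangles nascent RNA, with 1 marker of each per culture. In total RNA the GM10835 cultures lie above all others for 8 of 10 genes, while in nascent RNA the lines lie closer together.

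Nascent RNA differed less between the lines. Its range over the means of GM07029, GM10835 and GM12813 had a median of 0.61 over the members, against 2.42 in total RNA; over all tested clusters the medians were 0.35 and 0.45. The range was larger in total than in nascent RNA for 10 of 10 members and for 9343 of 14167 clusters. GM10835 was the highest of the 7 lines in nascent RNA for 3 members: SLIRP, PEBP1 and TIMP1.

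GOT2 and CISD1 had the flattest nascent RNA between these lines. GOT2 nascent RNA was 11.72, 11.55 and 11.74 in GM07029, 11.83, 11.68 and 11.64 in GM10835 and 11.68, 11.74 and 11.74 in GM12813. The range of its line means was 0.05, below the SD of 0.10 between cultures of GM10835, while its total RNA ranged over 2.07. CISD1 nascent RNA averaged 9.90 ± 0.22, 9.80 ± 0.14 and 9.85 ± 0.13 in the same order, a range of 0.10 beside 1.92 in total RNA. The cultures of the 3 lines overlapped for both genes.

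NEDD8 had the widest nascent range of the members, 1.23, a difference of the same direction as in total RNA between the replicated lines. Nascent NEDD8 was 10.54, 10.28 and 10.41 in GM10835, 9.69, 9.52 and 9.71 in GM07029 and 9.01, 9.25 and 9.29 in GM12813, without overlap. GM12812 held 10.65, more than GM10835, although its total RNA of 8.09 was among the lowest. For CHMP2A, nascent RNA averaged 10.91 ± 0.08 in GM10835, 10.15 ± 0.12 in GM07029 and 10.40 ± 0.08 in GM12813, and GM12812 was again slightly higher, at 10.96. HCST nascent RNA was 7.80 ± 0.15 in GM10835, against 7.21 ± 0.05 and 7.22 ± 0.08 in GM07029 and GM12813, and it reached 8.02 in GM12812.

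The nascent ranges of the others between the 3 replicated lines were 0.85 for PEBP1, 0.81 for TIMP1, 0.62 for DYNLL1, 0.41 for SLIRP and 0.36 for MYL6. DYNLL1 ran against its total RNA: nascent RNA averaged 12.20 ± 0.15 in GM12813, where total RNA was lowest, and 11.58 ± 0.26 in GM10835. MYL6 averaged 10.06 ± 0.49, 10.42 ± 0.15 and 10.31 ± 0.08 in GM07029, GM10835 and GM12813, with overlapping cultures.

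Several genes have copies elsewhere in the genome that array probes may not separate. RefSeq names 7 pseudogenes after DYNLL1, 7 after GOT2, 5 after MYL6, 3 after PEBP1, 2 after SLIRP, 1 after NEDD8 and 1 after CISD1, and 0 after CHMP2A, HCST and TIMP1. How the deposited summaries treated probes shared with such copies is not given in the sources used here, so the levels of those 7 genes may include signal from them.

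The nascent/total ratio was the nascent minus the total log2 value of a culture, set relative to the median cluster of that culture, so that 0 is the ratio of the median cluster. It was lowest in GM10835 for 10 of 10 members. The median over the members was -1.62 in GM10835 and -0.52 in GM07029, and it was 0.72 in GM12813, 0.43 in GM07019, 0.78 in GM12812, 0.86 in GM12814 and 0.90 in GM12815. All 3 GM10835 cultures lay below every other culture for 7 of 10 members, against 7.5% of all tested clusters; the members were picked on this ratio, and nothing is read from the count. The exceptions were DYNLL1, MYL6 and CISD1, in which cultures of GM07029 reached as low or lower.

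NEDD8 had ratios of -1.94, -2.36 and -2.05 in GM10835, -0.09, -0.69 and -0.84 in GM07029 and 0.38, 0.37 and 0.74 in GM12813, and 0.81, 1.74, 0.73 and 1.50 in GM07019, GM12812, GM12814 and GM12815. It thus lay below the median cluster in both GM10835 and GM07029 and above it in the other 5 lines. Its range over the replicated lines was 2.61. CHMP2A had -1.22, -1.45 and -1.41 in GM10835, 0.10, 0.04 and -0.59 in GM07029 and 0.76, 0.98 and 1.06 in GM12813, a range of 2.30, and 0.70 to 1.45 in the lines grown once.

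HCST and TIMP1 had ratios below 0 in every culture. HCST was at -2.58, -3.05 and -2.84 in GM10835 and at -0.98, -1.09 and -1.16 in GM07029. In GM12813 HCST was at -0.54, -0.72 and -0.46, and the lines grown once lay between -0.68 and -0.31. For TIMP1 the values were -2.33, -2.67 and -2.50 in GM10835, -0.74, -1.07 and -1.47 in GM07029 and -0.78, -0.75 and -0.46 in GM12813. GM10835 stood apart for both genes, and for TIMP1 GM07029 and GM12813 overlapped slightly.

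GOT2 had the opposite placing: its ratio was above 0 in every culture except those of GM10835. It was -0.33, -0.25 and -0.31 in GM10835, 0.97, 0.68 and 0.59 in GM07029, 1.55, 1.70 and 2.18 in GM12813, and 1.40, 2.05, 1.62 and 1.38 in GM07019, GM12812, GM12814 and GM12815. SLIRP was at -0.63 ± 0.07 in GM10835, 0.38 ± 0.46 in GM07029 and 1.52 ± 0.47 in GM12813. PEBP1 averaged -1.89 ± 0.19, -1.07 ± 0.28 and 0.21 ± 0.18 in the same order, with 0.08 to 0.39 in the lines grown once.

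For CISD1, DYNLL1 and MYL6 the ratio separated GM10835 and GM07029 from GM12813, but not GM10835 from GM07029. CISD1 was at -0.60 ± 0.19 in GM10835, -0.50 ± 0.61 in GM07029 and 1.33 ± 0.20 in GM12813. DYNLL1 was at -0.60 ± 0.22, -0.40 ± 0.65 and 1.25 ± 0.61, and MYL6 at -2.02 ± 0.20, -1.68 ± 0.87 and -0.10 ± 0.46. The GM07029 cultures of MYL6 spread from -2.46 to -0.75, over the whole range of GM10835. GM07019 also had low values for DYNLL1 (-0.20) and MYL6 (-0.80), below those of the other lines grown once.

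**Figure D2:**
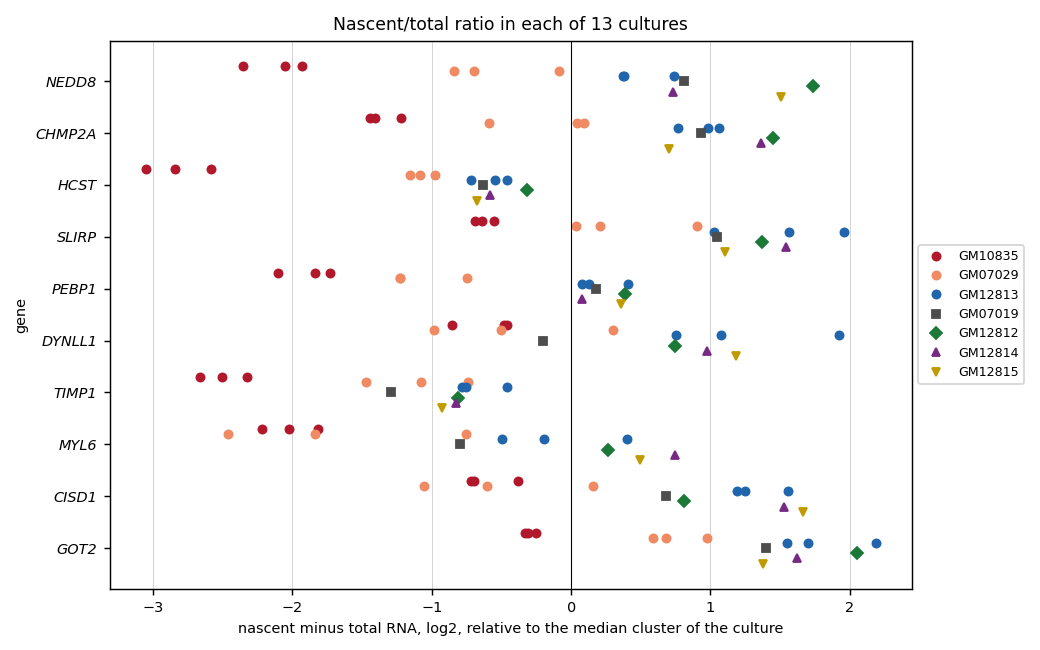
Nascent/total ratio of each member in the 13 cultures (log2, with the culture's median cluster at 0), with 1 marker per culture. The GM10835 cultures lie at the left for all genes, from -3.05 for HCST to -0.25 for GOT2, and overlap with GM07029 for DYNLL1, MYL6 and CISD1.

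The median range of the ratio over the members was 2.10 between the 3 replicated lines, against 0.34 over all tested clusters, and 2.31 against 0.73 over all 7 lines. Without GM10835 it was 1.53 over 6 lines, against 0.64 over all tested clusters. The corresponding medians in total RNA were 2.89 over 7 lines and 1.38 without GM10835, and in nascent RNA 1.12 and 1.10. Leaving out GM10835 changed the members' spread in total RNA far more than in nascent RNA. Over all tested clusters the medians went from 0.79 to 0.65 in total RNA and from 0.78 to 0.69 in nascent RNA. The members were picked for a wide ratio range with less change in nascent RNA, so their contrast is a description.

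**Figure D3:**
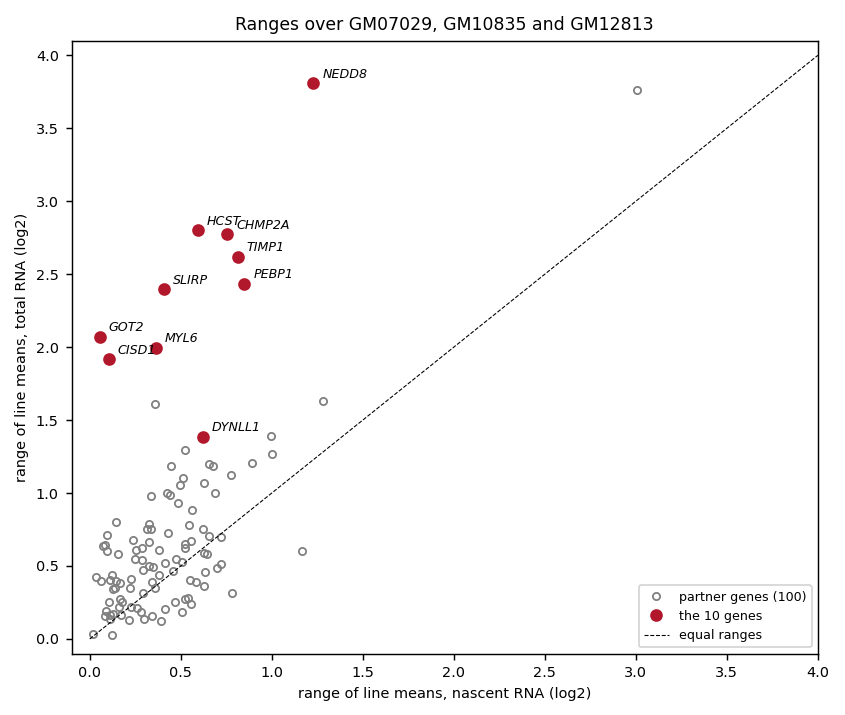
Range of the line means of nascent RNA against that of total RNA over GM07029, GM10835 and GM12813, in log2 units. Points are the members and 100 partner genes, which were listed by function and are described below. All 10 members lie on the side of larger total RNA ranges, between 1.39 (DYNLL1) and 3.81 (NEDD8).

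Because the ratio is set relative to the median cluster, its median difference between GM12813 and GM10835 over all clusters is near 0 by construction. Bins of level show only whether that difference changed with the level. In 5 bins of mean total RNA, the median of GM12813 minus GM10835 in the ratio ran from -0.04 to 0.04. The members lay in 4 of these bins, 5 of them at log2 levels from 9 to 10. Genes of oxidative phosphorylation, which supply the respiratory chain, had a median ratio of -1.13 in GM10835 and from -0.66 to -0.05 in the other lines (61 genes). The 25 cytosolic ribosomal protein genes had -0.74 in GM10835 and from -0.50 to -0.04 elsewhere. Both lists were lowest in GM10835 as the members were, with smaller differences; they were chosen with earlier results of these data known.

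Whether a member's ratio differed from that of the median cluster was tested over the 7 lines, with 1 value per line. GOT2, SLIRP and CISD1 had higher ratios than the median cluster, and TIMP1 and HCST lower ones. These are 5 of 10 members, beside 63.5% of all tested clusters in either direction, 31.7% higher and 31.7% lower. The error of this test is the spread between lines, which the choice of members made large, so the share called among them is not comparable with the background. The means also hold the line ratios used for the choice, with GM10835 lowest for 10 of 10 members. Without GM10835 the mean of HCST, for example, moved from -0.95 to -0.64. The means and p-values below are therefore not independent of the choice and are read as a description.

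GOT2 averaged 1.24 ± 0.79 (SD, n = 7 lines; 95% confidence interval 0.73 to 1.75, adjusted p = 0.000601, limma with Benjamini-Hochberg adjustment) and was positive in 6 of 7 lines. SLIRP averaged 0.90 ± 0.78 (adjusted p = 0.00438, limma), also positive in 6 of 7. TIMP1, the secreted protease inhibitor, averaged -1.16 ± 0.63 (interval -1.57 to -0.75, adjusted p = 0.000191, limma) and HCST -0.95 ± 0.86 (adjusted p = 0.00491, limma), both negative in 7 of 7. CISD1 averaged 0.70 ± 0.93 with an adjusted p of 0.0355 (limma), positive in 5 of 7 lines. That call ended when any of GM07019, GM12812, GM12813, GM12814 or GM12815 was left out, with adjusted p from 0.0639 to 0.101. NEDD8 (0.37 ± 1.32), CHMP2A (0.55 ± 0.99), DYNLL1 (0.42 ± 0.79), PEBP1 (-0.25 ± 0.88) and MYL6 (-0.44 ± 1.09) were not distinguished from the median cluster, with adjusted p from 0.106 to 0.40 (limma). Their lines fell on both sides of 0, and the interval for NEDD8 ran from -0.43 to 1.18.

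The reference point enters these calls. With the ratio left uncentred, 6 members were higher and 0 lower: HCST then averaged -0.18 (adjusted p = 0.484) and TIMP1 -0.39 (adjusted p = 0.0682). The median uncentred ratio of a culture was 0.65 to 0.88, so 0 then lay below the median cluster. Without GM10835, 8 members were called, 6 of them higher, with NEDD8 at 0.79, CHMP2A at 0.87 and DYNLL1 at 0.59 among these. The share of all tested clusters called was not counted in either setting, so these member counts have no background beside them.

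The members were also compared among the lines grown once, GM07019, GM12812, GM12814 and GM12815, with the spread taken from the 9 cultures of the other lines and each lone culture assumed to vary like them. The rule took values over all 7 lines and names no subset for the choice, so these 4 lines may have entered it. The counts and p-values below are not independent of the choice and are read as a description. Nascent RNA differed for 6 members and total RNA for 1. The ratio was called for 0 members. In simulated data this ratio test recovered 18% of changes of 1 on the log2 scale and 72% of changes of 2, so it can miss real differences. The limma moderated F test called 7.23% of all tested clusters in total RNA, 47.8% in nascent RNA and 0.755% in the ratio. The ratio was under an unadjusted p of 0.05 for 1 member, NEDD8, and for 21.8% of clusters, and limma without the intensity trend also called 0.

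The nascent calls were CHMP2A (adjusted p = 0.000109), GOT2 (0.000306), TIMP1 (0.00309), MYL6 (0.00905), CISD1 (0.0154) and SLIRP (0.0212), each by limma. SLIRP lost its call with quantile normalization (adjusted p = 0.0736). GM12815 was lowest of the 4 in nascent RNA for 6 members. Over all tested clusters its nascent median was also the lowest, 8.49 against 8.77 to 8.84 in the other lines grown once. Nascent values were tested without centring, so this shift was not removed before the tests. The share of all clusters lowest in GM12815 was not counted. CHMP2A nascent RNA was 10.24, 10.96, 10.72 and 9.67 in GM07019, GM12812, GM12814 and GM12815, and GOT2 was 11.54, 11.41, 11.58 and 10.66. The GM12815 values were the low ones for both. Without GM12815, whose nascent array stood apart, 1 member was called in nascent RNA, CHMP2A (adjusted p = 0.0119, limma), against 13.5% of all clusters, and 0 in the ratio, against 0.0282%. In total RNA MYL6 was called at an adjusted p of 0.0491 (limma), with 10.25, 9.44, 9.15 and 8.07 in the same order. Without GM12815, 0 members were called in total RNA, beside 3.15% of clusters. Leaving out GM07029 replicate 2, any 1 GM10835 culture or GM12813 replicate 1 also left 0. Without GM07029 replicate 3 the call passed from MYL6 (adjusted p = 0.0677) to TIMP1 (0.0323), and without GM12813 replicate 3 there were 5 calls (limma).

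Among these 4 lines the ranges of the members were nearer to those of other clusters. The median range of the members there was 0.79 in total RNA, 0.83 in nascent RNA and 0.71 in the ratio, and over all tested clusters 0.50, 0.56 and 0.51. The range was larger in total than in nascent RNA for 6 of 10 members and for 6164 of 14167 clusters.

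Replicate cultures of a line also moved the members together. In GM07029, replicate 1 lay below the line mean in total RNA for 10 of 10 members and replicate 3 above it for 10 of 10, with median deviations of -0.30 and 0.33. Of all tested clusters, 55% lay below the line mean in replicate 1 and 30.2% in replicate 3. The medians over all tested clusters were -0.03 and 0.07. In GM12813, replicate 1 lay above the line mean for 10 of 10 (median 0.22, all clusters 0.10) and replicate 3 below it for 10 of 10 (-0.42, all clusters -0.12). Most clusters moved the same way there, with 24.6% of all tested clusters below the line mean in replicate 1 and 74.9% in replicate 3, the culture whose first array stood apart. The ratio mirrored this: it was highest in replicate 1 of GM07029 and in replicate 3 of GM12813 for 10 of 10 members each. Of all tested clusters, 45.6% and 40.7% had ratios below the line mean in these cultures, and 0 members did. The GM10835 cultures stayed within 0.04 of their line mean in the median of the members in total RNA.

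**Figure D4:**
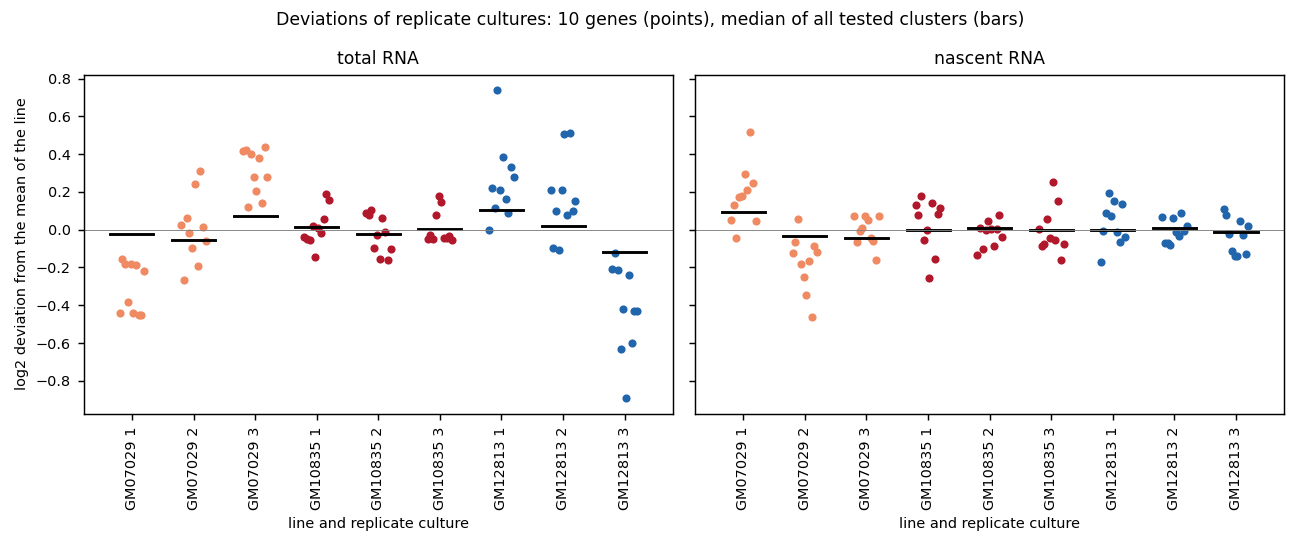
Deviation of each replicate culture from the mean of its line for the 10 members, in total RNA and nascent RNA (log2). Bars mark the median of all tested clusters. In total RNA all 10 members lie below the line mean in GM07029 replicate 1 and GM12813 replicate 3, and above it in GM07029 replicate 3 and GM12813 replicate 1.

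Over the 45 pairs of members, the median Pearson correlation of these deviations across the 9 cultures was 0.76 in total RNA (0.15 to 0.95), 0.32 in nascent RNA and 0.71 in the ratio. Over the 7 line means the medians were 0.91, 0.48 and 0.88. These are descriptions: the members share arrays, and the choice of members shapes the latter set. In the technical duplicates of GM12813 replicate 3, the 10 members differed by a median of 0.32 in total RNA, against 0.19 over all clusters. DYNLL1 read 8.52 on the first array and 9.99 on the second, so part of its low mean in that culture came from 1 array. In nascent RNA the duplicates of that culture differed by 0.13, against 0.07.

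Other genes followed the same profile over the lines. The gene nearest to each member by Pearson correlation of the ratio over the 7 line means was CTNNBL1 for NEDD8 (r = 0.985), POLR2H for CHMP2A (0.997), PNPLA4 for HCST (0.993), CCT6A for SLIRP (0.992), ACAT1 for PEBP1 (0.988), RARS1 for DYNLL1 (0.970), MRPL21 for TIMP1 (0.992), MRPL41 for MYL6 (0.990), SSBP1 for CISD1 (0.983) and SET for GOT2 (0.986). With the median profile of the members, 191 of 9519 candidate genes (2.01%) had r above 0.9 and 106 had r below -0.9. The nearest were GTF2H5 (0.994), TMEM14B (0.985), FBL (0.981), ATP5MJ and ATP5IF1 (both 0.980). With 7 points from shared arrays, these values rank genes and carry no test.

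Genes that work with the members, which were listed by function, had ratio ranges much like those of clusters in general. Of 136 such genes in 10 lists, 106 were on the array under a single symbol and 100 were tested between GM07029, GM10835 and GM12813. The ratio differed for 34 of the 100, beside 25.4% of all tested clusters, and 19 of the 100 were called with the lowest ratio in GM10835, beside 10.8% of all tested clusters. Total RNA differed for 65, beside 56.3%, and nascent RNA for 62, beside 56.7%. The median range of their ratios was 0.36, beside 0.34 over all clusters. The members' 2.10 was fixed by their choice and is no measure for these lists. The count in the ratio depended on single cultures. It fell to 19, 22 and 15 without GM10835 replicates 1, 2 and 3, and to 12 and 13 without GM12813 replicates 2 and 3. Without GM07029 replicate 1 it rose to 43. The share of all tested clusters called was not counted in these settings, so the changes are not particular to the partner genes.

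In the ESCRT-III list, 3 of 12 tested genes differed in the ratio. CHMP5, which regulates disassembly of the complex, had the largest difference, with ratios of -0.77 ± 0.15 in GM10835, -0.74 ± 0.58 in GM07029 and 0.57 ± 0.42 in GM12813 (adjusted p = 0.00738, limma). Its total RNA ranged over 1.61, while its nascent RNA ranged over 0.36 and did not pass (adjusted p = 0.161). CHMP2B, the nearest relative of CHMP2A, was at -0.10 in GM10835, -0.22 in GM07029 and 0.60 in GM12813 (adjusted p = 0.00612, limma). Among 26 genes that attach or remove NEDD8, 11 differed, 5 of them lowest in GM10835. DCUN1D5, a co-ligase for NEDD8, had ratios of 0.16, 0.42 and 1.00 in GM10835, GM07029 and GM12813, and CUL5, a cullin that NEDD8 modifies, -0.47, -0.61 and 0.20. CUL5 lost its call without GM12813 replicate 3 and with the first array of each culture only.

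In the malate-aspartate shuttle, which GOT2 serves, 2 of 6 genes differed. SLC25A11, the oxoglutarate carrier, was at -0.67 ± 0.14 in GM10835, 0.04 ± 0.22 in GM07029 and 0.10 ± 0.20 in GM12813 (adjusted p = 0.00634, limma). MDH1, the cytosolic malate dehydrogenase, was at -1.53, -1.16 and -0.91, and lost its call without GM10835 replicate 2 or 3 or GM12813 replicate 2 or 3, with no filter and with the trend on signal removed. Among 8 iron-sulphur genes, 2 differed, and LYRM4, a partner of the cysteine desulphurase NFS1, was at -1.64 in GM10835, -0.99 in GM07029 and -0.87 in GM12813 (adjusted p = 0.0106, limma). GLRX5 ran from -0.46 in GM10835 to -0.02 in GM12813 and did not pass (adjusted p = 0.0624). Of 9 genes of mitochondrial mRNA handling 3 differed. POLRMT was at -0.09 in GM10835, -0.27 in GM07029 and -0.58 in GM12813 (adjusted p = 0.0376, limma). GRSF1 was at -0.08, -0.42 and 0.04 in the same order (adjusted p = 0.0201, limma). POLRMT lost its call without any 1 GM10835 or GM12813 culture. GRSF1 lost it without GM10835 replicate 3 or GM12813 replicate 2 or 3. LRPPRC, the partner of SLIRP, had a range of 0.04 (adjusted p = 0.956, limma).

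MYL6B, an alternative light chain to MYL6, had ratios of -1.30 ± 0.10 in GM10835, -0.69 ± 0.10 in GM07029 and -0.54 ± 0.18 in GM12813 (adjusted p = 0.00356, limma), and it was 1 of 3 genes called of 8 in the myosin list. In the dynein list 4 of 13 were called. DYNLT3, a dynein light chain, was at -0.49, -0.28 and 0.42 in GM10835, GM07029 and GM12813, and lost its call without GM07029 replicate 2, GM10835 replicate 1 or 3, or any 1 GM12813 culture, with no filter and with the first arrays only. DYNLL2, the close relative of DYNLL1, had -0.21, 0.17 and -0.22 in GM07029, GM10835 and GM12813 (adjusted p = 0.0373, limma), so it was highest in the line where DYNLL1 was lowest.

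Of 6 tested metalloproteinase-related genes 2 differed. CD63, a cell-surface partner of TIMP1, had ratios of -0.82 ± 0.07 in GM10835, -0.54 ± 0.21 in GM07029 and 0.02 ± 0.20 in GM12813 (adjusted p = 0.0047, limma). MMP7, a matrix metalloproteinase, ranged over 3.76 in total and 3.01 in nascent RNA and over 0.78 in the ratio, so most of its difference was present in both fractions. Its call in the ratio was lost without GM10835 replicate 1 or 3 or GM12813 replicate 2 or 3, with no filter and with the trend on signal removed. In the RAF-MEK-ERK list, where PEBP1 acts, 2 of 5 differed. YWHAB, a 14-3-3 protein, was at -0.55, -0.48 and 0.16 in GM10835, GM07029 and GM12813 (adjusted p = 0.00355, limma). GRK2 was at -0.20, -0.21 and -0.55 in the same order (adjusted p = 0.0303, limma). It lost its call without any 1 GM10835 or GM12813 culture. In the list around HCST 2 of 7 differed, PIK3R1 and the inhibitory receptor CD300A, which lost its call without GM10835 replicate 2 (adjusted p = 0.051), without centring (0.0534) and with no filter on low signal (0.068). PIK3R1, the regulatory subunit of the kinase that HCST recruits, had its lowest ratio in GM07029 (0.77), not in GM10835 (1.21), and lost its call with the first arrays only (adjusted p = 0.0569). TYROBP, an adaptor related to HCST, had a range of 0.18 (adjusted p = 0.699, limma).

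The promoters of the members were searched for letters they might share. In the 250 bases before the RefSeq start of each gene, both strands were read for 4 short motifs. The GC box GGGCGG was present for 8 of 10 members and 46.2% of all genes, the CCAAT box CCAAT for 4 of 10 and 37.0%, and the TATA box TATAAA for 0 of 10 and 13%. The ETS core CCGGAA was found for 3 of 10 members, NEDD8, CHMP2A and SLIRP, and for 17.2% of all genes. These 3 stretches of 30 bases, from RefSeq on build GRCh38.p14, show for each of these genes the core nearest to its start; capitals mark the core or, as TTCCGG, its reverse complement, and the letters TTCCGGAA would hold both. Between the 3 replicated lines the ratio ranged over 2.61 in NEDD8, 2.30 in CHMP2A and 2.15 in SLIRP. Members without a core ranged over 1.83 (TIMP1) to 2.25 (HCST). A relation between the core and the range was not tested.
NEDD8, chr14:24232368-24232397, minus strand: gggggtggagccagacagtgacCCGGAAgt
CHMP2A, chr19:58555126-58555155, minus strand: agtttcccaaccTTCCGGgtgcgggcgggg
SLIRP, chr14:77708041-77708070, plus strand: tctcgtgttccggatCCGGAAattttttcc
The cores shown lie 8 bases before the start for NEDD8, 38 for CHMP2A and 15 for SLIRP. SLIRP had further matches at 23 and 44 bases, NEDD8 at 54 and 56, and CHMP2A at 81. A match says only that these letters are in the window.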

How the data were processed

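The authors deposited log2 intensities, 1 column per exon array and 1 row per transcript cluster. Affymetrix Power Tools and build hg18 are named per the submitters' processing notes; the summary method, the version and any joint normalization of nascent with total arrays are not given in those notes. The background limit, log2 6.40, is the 95th percentile over 216 olfactory receptor clusters, and 14167 clusters above it over all 32 arrays were tested. Technical duplicates were averaged, and each culture's nascent minus total log2 value was centred on its median. Tests used limma 3.58.1 in R 4.3.3 (lmFit, eBayes with trend, two-sided), adjusted by Benjamini and Hochberg over the 14167 clusters at a threshold of 0.05. The steps were tested on simulated data, with ratios changed by 1 or 2 on the log2 scale. Between the 3 replicated lines 74% and 99% of these changes were recovered, and over the 7 lines 92% and 100%. Among the lines grown once only 18% and 72% were recovered.

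The platform table gave 14405 clusters with 1 symbol, 2365 with several and 5018 with none; 14377 of the 14405 matched RefSeq. All 10 members matched RefSeq promoters. Coordinates come from RefSeq's build, not the arrays'. The members, partner lists and tests were chosen with earlier results of these data known. Partner genes given with values were among the 2 with the widest ratio range over the 3 replicated lines in each list. MYL12A and DYNC1LI2 were also among these and are not described. TYROBP, LRPPRC and DYNLL2 were named after their values were seen. Neighbour genes were the nearest by Pearson correlation of the ratio over 7 line means. Motif searches were counted per gene. Protein length, planned as a feature, was not analysed here. Replicate cultures are independent cultures per the series' design, so p-values of the partner genes rest on the spread between cultures. Those over the 7 lines rest on the spread between lines. Among the lines grown once, the spread was taken from the cultures of the replicated lines.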

Additional observations from a re-analysis of the deposited data

Results flagged for a closer look

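In 8 of 30 sets of 7 line means (10 members in total RNA, nascent RNA and the ratio), 1 line lay far from the other 6 by Dixon's criterion. This criterion sets the gap to the nearest line against the whole range, and chance alone gives about 1 in 20 for independent sets. The 30 sets share arrays and are not independent. The share of all tested clusters meeting the criterion was not counted, so nothing is read from the count. The members were picked on a wide range between lines, so such gaps in total RNA and the ratio are a description. GM10835 was the highest line in total RNA for NEDD8 (11.69, next 9.42), CHMP2A (11.44, next 9.54), HCST (9.80, next 7.60), PEBP1 (10.71, next 9.11) and TIMP1 (11.68, next 9.85). It was the lowest line in the ratio for HCST (-2.83, next -1.08) and TIMP1 (-2.50, next -1.30). GM12815, grown once, was the lowest line in nascent GOT2 (10.66, next 11.41). The nascent array of this line had the lowest correlation with other lines, 0.919, and the lowest median of the nascent arrays, 7.58.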

How the results depend on the processing

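Over the 7 lines, 5 members were called, 3 higher and 2 lower; without centring 6 were higher and 0 lower, and with the trend of the ratio on signal removed 5 were higher. Leaving out 1 line in turn gave 4 to 8 called, 2 to 6 higher and 2 lower. For these changed settings over the 7 lines, the share of all tested clusters called was not counted. Among the 4 lines grown once, the 1 call in total RNA became 0 with quantile normalization, no filter on low signal, the first array of each culture or no intensity trend, and 0 to 5 with 1 culture left out; nascent calls were 6 to 7 with 1 culture left out and 1 without GM12815, a setting chosen after seeing the data, under which total calls were 0. Partner genes called in the ratio, 34, became 14 with no filter, 16 with the first array only and 12 to 43 with 1 culture left out. No share of all clusters was counted beside these partner counts. The median nascent range of the members over 7 lines was 0.96 after quantile normalization, and the median ratio range over 3 lines 1.79 with the trend removed. Replicate numbers did not pair the samples (9 pairs, r from -0.43 to 0.20, 2 above 0.1). With the replicate number as a block 16 partner genes were called, and CD300A, MMP7, DYNLT3, POLRMT and GRK2 were not. No called mean ratio over the 7 lines changed sign in any setting run. The other calls rest on ranges and F tests, which have no sign, so their direction was not compared. The number of arrays limits what could be detected, most of all in the lines grown once.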
